A study of Mus musculus with 6 samples.

Results

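The genes described here encode the structural proteins of the cardiac sarcomere other than the troponins, myosins and actins, together with the intermediate filament, membrane and intercalated disc proteins tied to them and the factors that fold or degrade them. They were taken by name as 34 listed symbols among the 23337 genes of the deposited count table, and no expression value enters that rule. The libraries came from wild-type mice given an adeno-associated virus (AAV) on postnatal day 1 and studied at 4 weeks of age. Cardiomyocytes were released by Langendorff perfusion, in which enzyme solution is run through the coronary vessels, and purified by flow sorting, and polyadenylated RNA was sequenced. AAV-GFP carried green fluorescent protein and was the control, AAV-XBP1S carried XBP1S and AAV-ATF6N carried ATF6N. XBP1S is the name in general use for the spliced, active form of the transcription factor XBP1, and ATF6N for the released amino-terminal fragment of ATF6. Each group had 2 libraries. The labels do not give the promoter that drove each transgene, how many animals went into a library, or whether replicates came from separate animals, so p-values below measure only the spread between these libraries, which may be technical.

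The sarcomere is the repeating contractile unit of striated muscle. Thin filaments of actin and tropomyosin are anchored in the Z-disc by α-actinin, thick filaments of myosin are cross-linked in the M-band by myomesins, and titin runs from one to the other. Z-disc proteins also pass mechanical load to signalling factors, and chaperones and ubiquitin ligases keep the lattice in repair. XBP1 and ATF6 are among the nuclear effectors of the unfolded protein response of the endoplasmic reticulum, and act mainly on secretory pathway genes. The comparisons below ask whether either of them altered the RNA of the contractile lattice.

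Total counts per library ran from 67702482 to 112049342. Values below are CPM, the usual unit of counts scaled to a common library total, here with edgeR's TMM factors, and replicate 1 is given first. Levels compared between genes are per kilobase of counted exon (RPKM, the CPM divided by that length). AAV-GFP replicate 1 stood apart from the other 5 libraries. It lay at -99.6 on the first principal component, which held 43.9% of the variance, against -14.2 to 46.0 for the others, and 0.337% of its counts were the ribosomal RNA gene Rn45s against 0.0319% to 0.130%. Reads of the delivered genes may have been counted together with the mouse's own copies, which was not tested. Xbp1 stood at 98.0 and 115 CPM in AAV-GFP, 160 and 166 under AAV-XBP1S and 145 and 152 under AAV-ATF6N, and Atf6 at 44.9 and 70.6, 77.0 and 111, and 162 and 158. Neither passed the test between groups (edgeR adjusted p = 0.307 for Xbp1 in AAV-XBP1S and 0.126 for Atf6 in AAV-ATF6N, both against AAV-GFP). The 8 cardiomyocyte markers, none of them at 0, summed to 107591 and 112513 CPM in AAV-GFP. Their sums were 86577 and 96057 under AAV-XBP1S and 132439 and 130108 under AAV-ATF6N, so AAV-XBP1S was lowest and AAV-ATF6N highest. Against AAV-GFP, 1 of the 8 had a log2 fold change above 0 in AAV-XBP1S (median -0.40). In AAV-ATF6N 3 did (median -0.09). The part of this difference in the values below was not tested. Of 12 skeletal muscle markers, Myh1, Myod1 and Myog had no count in any library. Ckm, the muscle creatine kinase that the heart also expresses, made up nearly all of that list's sum, with 6716 and 5041 CPM in AAV-GFP, 3040 and 2563 under AAV-XBP1S and 3183 and 3209 under AAV-ATF6N, and the other 11 were at 5.56 CPM or less. The part of skeletal muscle RNA in the values below was not tested.

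Sex-linked genes separated the groups. The summed level of 4 Y-linked genes was 31.6 and 43.0 CPM in AAV-GFP, 0.0215 and 0 under AAV-XBP1S and 186 and 175 under AAV-ATF6N. Xist, expressed from the inactive X chromosome of females, stood at 24.6 and 7.88, 43.1 and 20.2, and 0.197 and 0.0919 CPM. The AAV-XBP1S libraries therefore held Xist with 2 Y-linked counts in all, the AAV-ATF6N libraries held Y-linked RNA with little Xist, and both AAV-GFP libraries held both. In each comparison below the sex of the animals and the treatment cannot be told apart.

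**Figure D1:**
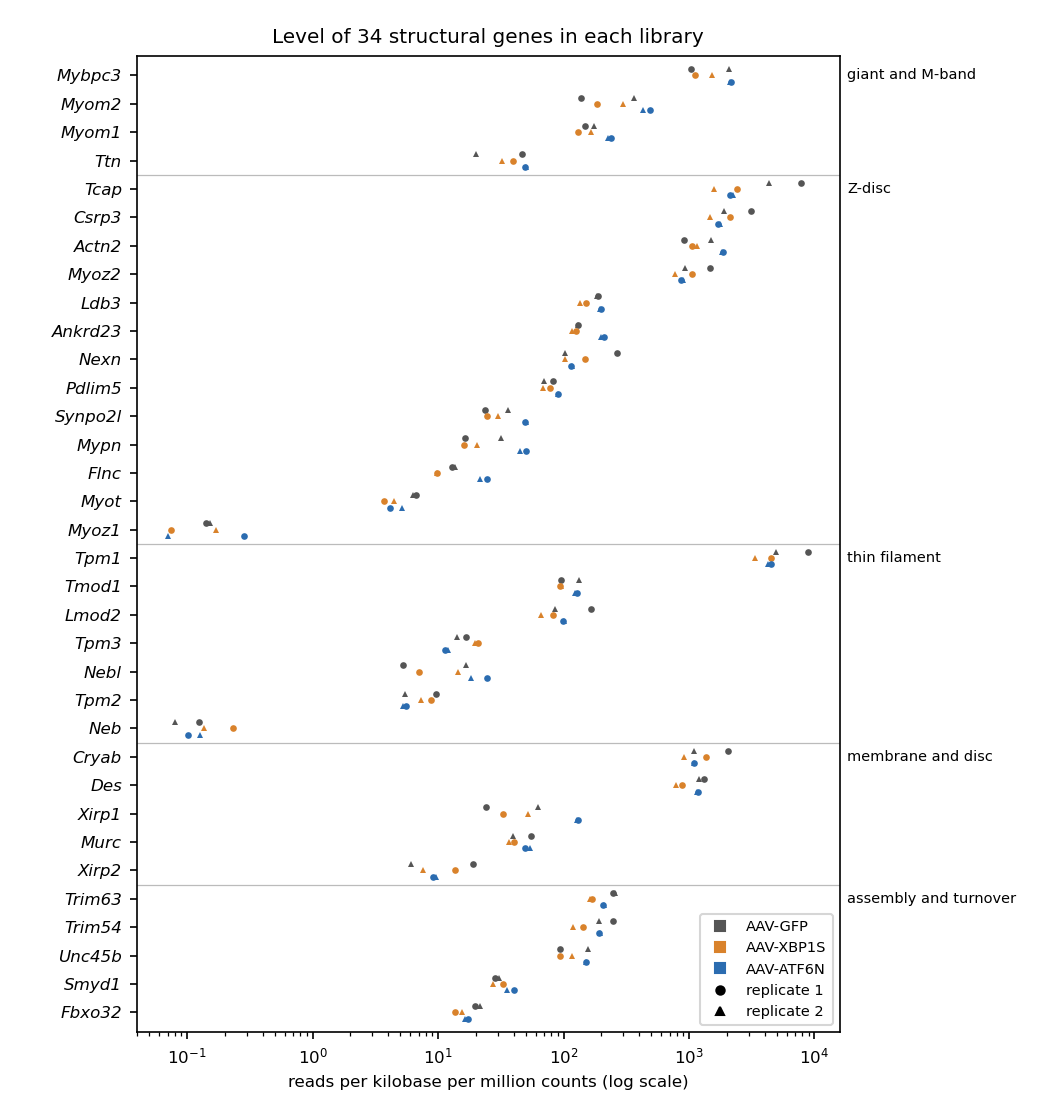
Level of each of the 34 genes in each of the 6 libraries, in RPKM on a logarithmic axis, ordered within functional groups; colour gives the group of mice and shape the replicate. Tpm1 and Tcap had the highest mean levels per length, 5093 and 3424, and Myoz1 and Neb the lowest.

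All 34 genes passed the filter on low counts and were tested. Their levels per length spanned from 0.133 RPKM for Neb to 5093 for Tpm1, as the mean of the 6 libraries. After Tpm1, α-tropomyosin, came Tcap (3424), Csrp3 (2016), Mybpc3 (1673), Actn2 (1390), Cryab (1268), Des (1082) and Myoz2 (1002), and the next gene, Myom2, was at 317. Titin, Ttn, which the table counts over 104320 bases, stood at 39.8 per kilobase although it took 2108 to 5238 CPM of each library. Between paralogs, the main cardiac form stood far above the others per kilobase. Myoz2 was at 1002 against 0.149 for Myoz1, Nebl at 14.4 against 0.133 for Neb, and Tpm1 at 5093 against 15.8 for Tpm3 and 7.01 for Tpm2. Together the 34 genes took 4.27% to 5.76% of all counts in a library, highest in AAV-GFP replicate 1 and lowest in AAV-XBP1S replicate 2.

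Replicate agreement differed between the groups, and it set how small a difference could be seen. The median difference between replicates over the 34 genes was 0.652 on the log2 scale in AAV-GFP, 0.300 in AAV-XBP1S and 0.0701 in AAV-ATF6N, against 0.576, 0.376 and 0.127 over all 14587 genes tested. In AAV-GFP 7 of the 34 genes differed by more than 2-fold between replicates, in AAV-XBP1S 2 did and in AAV-ATF6N 1 did. The AAV-GFP replicates parted in both directions. Ttn, Nexn and Xirp2 were 2.32-fold, 2.63-fold and 3.14-fold apart with replicate 1 higher, and Myom2, Xirp1 and Nebl were 2.67-fold, 2.60-fold and 3.19-fold apart with replicate 2 higher. No pair of replicates agreed within sampling noise, so none was merged.

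Promoter windows are shown for 4 Z-disc genes that stood higher in AAV-ATF6N than in both other groups, because XBP1 and ATF6 bind DNA at known elements. Of 7 Z-disc genes with that order these are the 4 called between AAV-ATF6N and AAV-XBP1S by 2 alternative fits described below, a choice made after the values were seen; Actn2, Ldb3 and Pdlim5 are not printed. RefSeq windows of 300 bases (250 before to 50 after a start site, GRCm38.p6) were found for 25 of the 34 genes, in 35 windows; Myom2, Tcap, Myoz1, Myot, Nexn, Neb, Cryab, Xirp1 and Fbxo32 were not among them. For each gene the window with the most searched motifs, or the first listed on a tie, is printed 5′ to 3′ on the gene's strand. The strand is plus for Flnc at chr6:29432903-29433202 and minus for Mypn at chr10:63203903-63204202, Synpo2l at chr14:20664525-20664824 and Ankrd23 at chr1:36536507-36536806. Synpo2l and Ankrd23 each had 2 windows, of different start sites. The printed Synpo2l window lies inside the counted gene, and the other (chr14:20668305-20668604, with a MEF2 motif) at its 5′ end. The printed Ankrd23 window lies outside the counted gene, and the other (chr1:36535690-36535989, with an MCAT motif) at its 5′ end. Capitals mark the motifs found: in Flnc CATTCC (MCAT) and then TGACGTGG (UPRE), in Mypn and Ankrd23 the MCAT motif, which in Mypn lies on the other strand, and in Synpo2l CAGCTG (E-box) at both ends with a MEF2 motif between. CAGCTG reads alike on both strands, the MEF2 stretch fits the searched pattern on both strands with different letters, and no marked motif overlaps another.
Flnc: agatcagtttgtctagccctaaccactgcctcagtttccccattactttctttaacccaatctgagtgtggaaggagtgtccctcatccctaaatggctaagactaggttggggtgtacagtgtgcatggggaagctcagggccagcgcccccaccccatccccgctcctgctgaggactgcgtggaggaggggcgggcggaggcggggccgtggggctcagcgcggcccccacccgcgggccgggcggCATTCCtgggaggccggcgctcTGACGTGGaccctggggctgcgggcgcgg
Mypn: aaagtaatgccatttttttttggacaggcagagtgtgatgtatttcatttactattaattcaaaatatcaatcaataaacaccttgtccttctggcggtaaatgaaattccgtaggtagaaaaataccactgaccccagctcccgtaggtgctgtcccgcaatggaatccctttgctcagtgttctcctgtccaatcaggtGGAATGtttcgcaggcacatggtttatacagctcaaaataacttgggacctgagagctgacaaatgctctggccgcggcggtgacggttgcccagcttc
Synpo2l: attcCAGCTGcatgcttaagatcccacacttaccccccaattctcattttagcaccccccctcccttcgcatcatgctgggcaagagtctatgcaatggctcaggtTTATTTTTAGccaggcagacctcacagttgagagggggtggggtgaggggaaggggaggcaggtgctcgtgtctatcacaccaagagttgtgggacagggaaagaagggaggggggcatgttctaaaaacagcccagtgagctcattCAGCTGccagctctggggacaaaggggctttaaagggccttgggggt
Ankrd23: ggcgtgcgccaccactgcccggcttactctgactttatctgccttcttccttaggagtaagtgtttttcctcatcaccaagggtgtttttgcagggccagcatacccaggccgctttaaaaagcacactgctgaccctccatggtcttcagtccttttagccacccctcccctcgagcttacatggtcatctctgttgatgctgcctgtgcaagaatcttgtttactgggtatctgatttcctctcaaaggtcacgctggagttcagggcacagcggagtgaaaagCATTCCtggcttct

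The unfolded protein response element TGACGTGG (UPRE), searched on both strands, was found in 2 of the 35 windows, both of Flnc. It covers bases 272 to 279 of the printed window, whose start site is base 251, and the second window overlaps the first, so both hold the same copy. Of all 32851 RefSeq windows 0.676% held it. The longer element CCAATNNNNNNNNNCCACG (ERSE) was in none of the 35 windows and in 0.119% of all. Among muscle motifs, MCAT (CATTCC) was in 11 of the 35 windows against 14.7% of all, the E-box CAGCTG in 9 against 16.3%, MEF2 in 6 against 3.19% and CArG in 4 against 1.63%. A match of letters is a description of the sequence and not a measured binding site.

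In AAV-XBP1S the structural genes stood mostly a little below AAV-GFP. The log2 fold change was below 0 for 29 of 34 and above 0 for 5, with a median of -0.27 against -0.01 for all genes tested. The lowest was Tcap at -1.61 and the highest Neb at 0.83. With library totals in place of TMM factors the median of all genes moved to 0.25 and that of the structural genes to -0.01, with 16 of 34 above 0, so the split of the genes around 0 turned with the scaling, while their median lay below that of all genes under both. None of the 34 passed edgeR's quasi-likelihood test (Benjamini-Hochberg adjusted p under 0.05), in a comparison where 0.315% of all genes did. At an unadjusted p under 0.05 there were 7, all lower, beside 11.6% of all genes. In 12 genes both AAV-XBP1S libraries lay below both AAV-GFP libraries and in 2 both lay above, where 16.8% and 19.1% of all genes did so. DESeq2 called 1 gene, Tcap, and 2.99% of all genes it tested.

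In AAV-ATF6N the genes stood on both sides of the control. Against AAV-GFP, 19 of 34 had a log2 fold change above 0 and 15 below, with a median of 0.14 against -0.02 for all genes. The values ran from -1.48 for Tcap to 1.57 for Xirp1. By edgeR's adjusted p 0 of the 34 passed, against 0.514% of all genes. At an unadjusted p under 0.05 there were 7, of which 6 were higher and 1 lower, beside 13.5% of all genes. Both AAV-ATF6N libraries lay above both AAV-GFP libraries in 14 genes and below in 10, where 27.9% and 26.7% of all genes did so. DESeq2 called 3, Tcap lower and Flnc and Xirp1 higher, and 3.76% of all genes it tested. With AAV-GFP replicate 1, the library that stood apart, as the only control, 2 of the 34 log2 fold changes changed sign. With replicate 2 as the only control 7 did.

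Set against each other, AAV-ATF6N stood above AAV-XBP1S in 26 of 34 genes and below in 8. The median log2 fold change was 0.44 against -0.01 for all genes; with library totals alone it was 0.23 where all genes had -0.22. In 22 genes both AAV-ATF6N libraries lay above both AAV-XBP1S libraries and in 3 both lay below, where 30.2% and 26.8% of all genes did so. In 4 genes, Ldb3, Flnc, Ankrd23 and Tpm3, both groups lay clear of AAV-GFP on opposite sides, as in 5.09% of all genes. edgeR called 0 of the 34 over the 6 libraries, against 0.226% of all genes, and the smallest adjusted p was 0.0601 for Flnc. At an unadjusted p under 0.05 there were 11, of which 10 were higher and 1, Tpm3, lower, beside 13.2% of all genes. DESeq2 called 5, with Xirp1, Mypn, Flnc and Ankrd23 higher and Tpm3 lower, and 5.39% of all genes. When edgeR was fitted to the 4 libraries of these groups alone it called those 5 with Actn2 and Synpo2l, both higher, and 4.62% of all genes. In groups of 2 an exact permutation test of a single gene cannot give a p below 33.3%. The comparisons of AAV-XBP1S and of AAV-ATF6N with AAV-GFP share their control libraries and are given side by side.

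**Figure D2:**
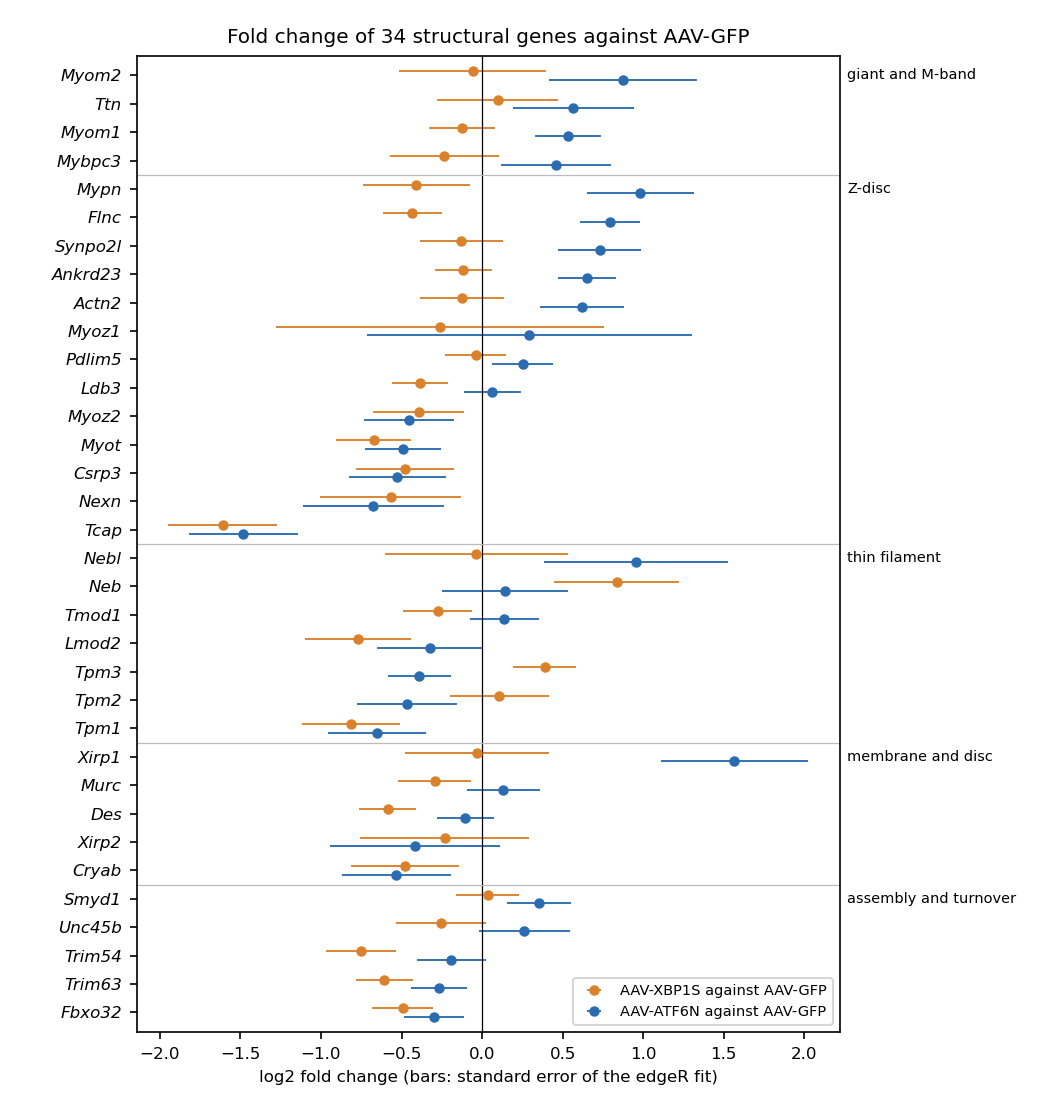
Log2 fold change of each structural gene against AAV-GFP, with its standard error, for AAV-XBP1S (orange) and AAV-ATF6N (blue), within functional groups. Tcap lies lowest in both comparisons, at -1.61 and -1.48, and Xirp1 highest in AAV-ATF6N at 1.57; with library totals in place of TMM factors the median of all genes in AAV-XBP1S moves to 0.25 and the orange points move up with it.

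The genes of the thick filament and M-band stood higher in AAV-ATF6N. In all 4 of them both AAV-ATF6N libraries lay above both libraries of each other group, as in 14 of the 34 structural genes and 16.1% of all genes tested. The log2 fold changes ran from 0.46 to 0.87 against AAV-GFP and from 0.47 to 0.93 against AAV-XBP1S, with none past edgeR's adjusted p. Myom2, a myomesin that cross-links thick filaments, stood at 677 and 1809 CPM in AAV-GFP, 915 and 1473 under AAV-XBP1S and 2416 and 2142 under AAV-ATF6N. The control replicates spanned most of that range, so the log2 fold change of 0.87 had an SE of 0.46 (edgeR adjusted p = 0.403). Mybpc3, cardiac myosin binding protein C, read 4306 and 8616, 4628 and 6353, and 8953 and 8810 CPM. AAV-ATF6N was highest here too, but AAV-GFP replicate 2 came within a few percent of it. Ttn read 4900 and 2108, 4144 and 3360, and 5137 and 5238 CPM, so the order of the AAV-GFP replicates was the reverse of that in Myom2 and Mybpc3. Myom1, the other myomesin, had 831 and 978, 731 and 927, and 1347 and 1269 CPM, and a log2 fold change of 0.53 (SE 0.21, edgeR adjusted p = 0.355) against AAV-GFP. Its control libraries were close to each other and overlapped those of AAV-XBP1S, and AAV-ATF6N lay above both. In AAV-XBP1S all 4 genes overlapped AAV-GFP, with log2 fold changes from -0.23 for Mybpc3 to 0.10 for Ttn; with library totals the 4 were all above 0, the lowest Mybpc3 at 0.01 and the highest Ttn at 0.39.

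Among the Z-disc genes was the lowest of both comparisons with AAV-GFP. Tcap (chr11:98383811-98384953, mm10, plus strand) encodes telethonin, which caps the amino-terminal end of titin. It stood at 7459 and 4091 CPM in AAV-GFP, 2280 and 1509 under AAV-XBP1S and 2021 and 2113 under AAV-ATF6N. All 4 libraries with a stress factor lay below both controls, and they overlapped one another. The mean was 3.05-fold lower in AAV-XBP1S (log2 fold change -1.61, SE 0.34, edgeR adjusted p = 0.166) and 2.79-fold lower in AAV-ATF6N (-1.48, SE 0.34, adjusted p = 0.176). The authors' deposited tables list Tcap at -1.61 with an adjusted p of 0.0108 and at -1.47 with 0.0017. DESeq2 on the counts gave adjusted p-values of 0.000858 and 0.00254. With either AAV-GFP library left out, the log2 fold change ran from -1.11 to -1.95 in AAV-XBP1S and from -0.99 to -1.84 in AAV-ATF6N.

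Short genes stood lower in general, and the counted length of Tcap, 948 bases, is the smallest of the 34. Over all genes tested, those under 1500 bases had a median log2 fold change of -0.25 in AAV-XBP1S and -0.49 in AAV-ATF6N, and those of 6000 bases and over had 0.14 and 0.31. Across the 34 genes the correlation between log2 fold change and log2 length was 0.517 in AAV-XBP1S and 0.433 in AAV-ATF6N, and across all genes it was 0.115 and 0.230. Genes are not independent replicates and share the same libraries. Replicates of 1 group also differed with length. Over all genes the log2 difference of replicate 1 from replicate 2 correlated with log2 length at -0.313 in AAV-GFP, -0.323 in AAV-XBP1S and 0.0524 in AAV-ATF6N. Across the 34 genes these were 0.00064, 0.0163 and -0.167. An offset that removed the trend over length in each library left Tcap at -1.38 (edgeR adjusted p = 0.00358) and -0.97 (0.00645), in fits that called 1.97% and 1.48% of all genes. The same offset called Des and Trim54 lower in AAV-XBP1S and Ankrd23 higher in AAV-ATF6N. It did not call Flnc or Xirp1, which DESeq2 called higher in AAV-ATF6N than in AAV-GFP. Csrp3, muscle LIM protein, had 3047 and 1833, 2082 and 1420, and 1653 and 1733 CPM, and Myoz2, the cardiac calsarcin that holds calcineurin at the Z-disc, 1710 and 1073, 1227 and 890, and 989 and 1041. Both were lower in each AAV-ATF6N library than in either control, with log2 fold changes of -0.53 (SE 0.30) and -0.45 (SE 0.28), which became -0.04 and -0.03 with the offset.

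**Figure D3:**
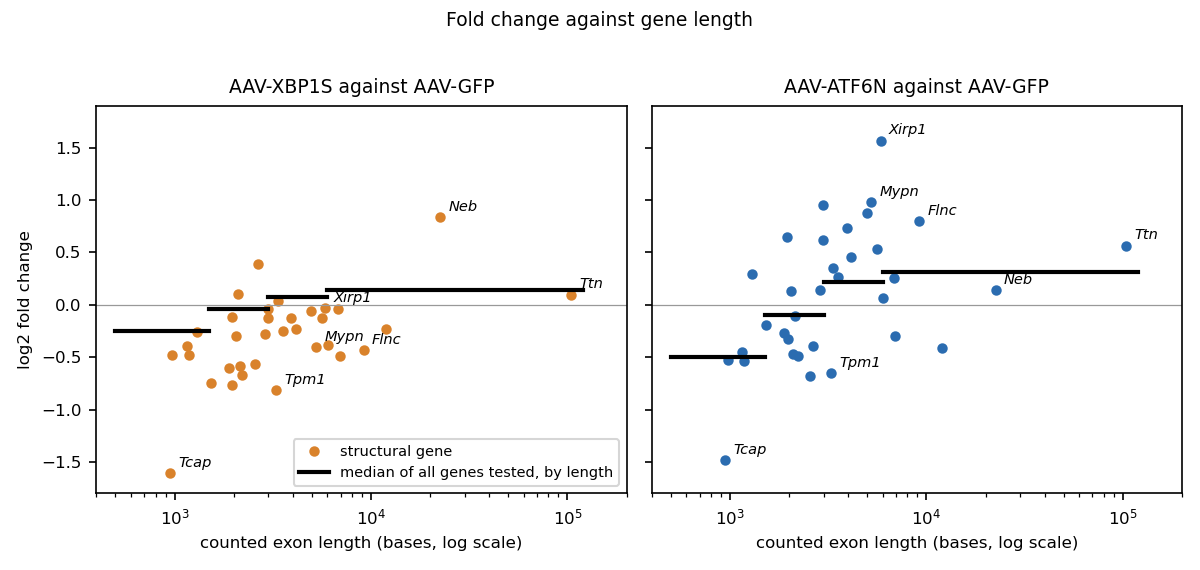
Log2 fold change of each structural gene against its counted exon length in bases, on a logarithmic axis, for both comparisons with AAV-GFP; black lines give the median of all genes tested within 4 ranges of length. The median of all genes goes from -0.25 to 0.14 in AAV-XBP1S and from -0.49 to 0.31 in AAV-ATF6N, and Tcap lies below the line of the shortest genes in both.

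At the other end, a set of Z-disc genes was higher in AAV-ATF6N than in both other groups. Flnc (chr6:29433153-29461888, plus strand) encodes filamin C, which cross-links actin at the Z-disc and the cell membrane. It stood at 118 and 124 CPM in AAV-GFP, 90.0 and 89.7 under AAV-XBP1S and 224 and 197 under AAV-ATF6N. The 3 groups did not overlap, with AAV-XBP1S lowest and AAV-ATF6N highest. It was 1.74-fold higher in AAV-ATF6N than in AAV-GFP (log2 fold change 0.80, SE 0.19, edgeR adjusted p = 0.182), 1.35-fold lower in AAV-XBP1S (-0.43, SE 0.18, adjusted p = 0.434) and 2.34-fold higher in AAV-ATF6N than in AAV-XBP1S (1.23, SE 0.19, adjusted p = 0.0601). Mypn (chr10:63115795-63203952, minus strand) encodes myopalladin, which links nebulin family proteins to α-actinin, and read 86.3 and 167, 83.8 and 107, and 265 and 236 CPM. AAV-GFP and AAV-XBP1S overlapped and AAV-ATF6N lay above both, 1.98-fold over AAV-GFP (0.98, SE 0.33, adjusted p = 0.319) and 2.62-fold over AAV-XBP1S (1.39, SE 0.34, adjusted p = 0.146). Ankrd23 (chr1:36530534-36535729, minus strand), a titin-binding ankyrin repeat protein, had 256 and 257, 246 and 227, and 414 and 392 CPM. Its control replicates were nearly equal, and the groups did not overlap. The log2 fold change was 0.65 (SE 0.18, edgeR adjusted p = 0.245) in AAV-ATF6N and -0.12 (SE 0.18, adjusted p = 0.814) in AAV-XBP1S. Synpo2l, an actin-binding Z-disc protein, read 92.1 and 142, 96.6 and 118, and 192 and 197 CPM, and Actn2, the sarcomeric α-actinin, 2715 and 4493, 3165 and 3445, and 5596 and 5481. In both genes AAV-XBP1S lay within the range of the controls and AAV-ATF6N above it.

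The remaining Z-disc genes were closer to the controls. Ldb3, a PDZ and LIM domain protein that binds α-actinin, had 1134 and 1120 CPM in AAV-GFP, 911 and 816 under AAV-XBP1S and 1186 and 1171 under AAV-ATF6N, so AAV-XBP1S lay below the others and AAV-ATF6N just above the controls. Its log2 fold change of 0.06 in AAV-ATF6N became -0.29 with the length offset. Myot, myotilin, which bundles actin, had 14.8 and 14.0, 8.18 and 9.87, and 9.09 and 11.4 CPM. It was lower in all 4 libraries with a stress factor than in both controls (log2 fold change -0.67, SE 0.23, edgeR adjusted p = 0.363 in AAV-XBP1S; -0.49, SE 0.23, adjusted p = 0.386 in AAV-ATF6N). Nexn, the actin-binding nexilin, had 690 and 262, 378 and 264, and 294 and 301 CPM, and AAV-GFP replicate 1 was far the highest. Myoz1, the calsarcin of fast skeletal muscle, was at 0.0919 to 0.370 CPM in all libraries with no order among the groups, and Pdlim5, a PDZ and LIM adaptor, had log2 fold changes of -0.04 in AAV-XBP1S and 0.25 in AAV-ATF6N. Counted as a group, all 13 Z-disc genes had a log2 fold change below 0 in AAV-XBP1S (median -0.39), though with library totals 5 of them turned to values above 0, Pdlim5 to 0.23, Ankrd23 to 0.15, Actn2 and Synpo2l to 0.12 and Myoz1 to 0.01. In AAV-ATF6N 8 were above 0 and 5 below (median 0.25), and with the length offset Ldb3 and Pdlim5 turned to -0.29 and -0.11.

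**Figure D4:**
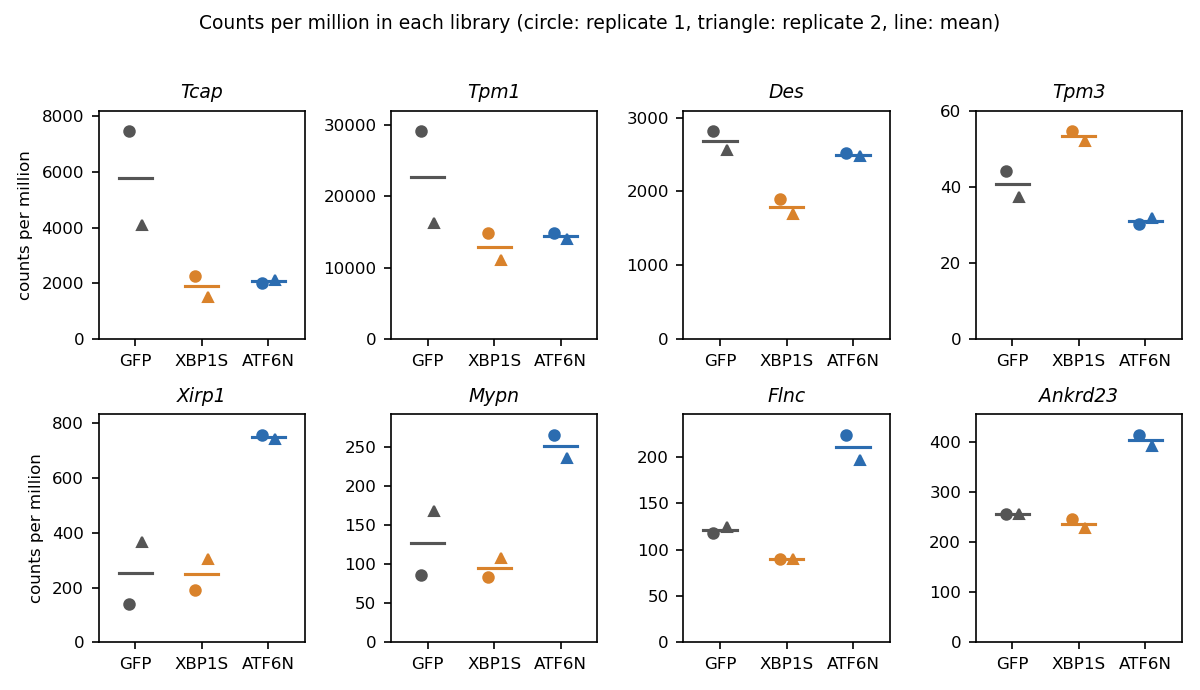
Level in CPM of 8 structural genes in each library on linear axes from 0; the line is the mean of the 2 replicates. Tcap and Tpm1 are highest in AAV-GFP, Des is lowest in AAV-XBP1S, and Xirp1, Mypn, Flnc and Ankrd23 are highest in AAV-ATF6N, where Tpm3 is lowest.

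In the thin filament the tropomyosin genes did not go together. Tpm1 (chr9:67022593-67049213, minus strand), the main cardiac tropomyosin, stood at 29122 and 16306 CPM in AAV-GFP, 14871 and 11011 under AAV-XBP1S and 14877 and 14010 under AAV-ATF6N. Both controls lay above all other libraries, replicate 2 by a narrow margin, and the mean was 1.76-fold lower in AAV-XBP1S (log2 fold change -0.81, SE 0.30, edgeR adjusted p = 0.389) and 1.57-fold lower in AAV-ATF6N (-0.65, SE 0.30, adjusted p = 0.383). Without AAV-GFP replicate 1 these were -0.34 and -0.18. Tpm3, a tropomyosin of slow skeletal fibres and of the cytoskeleton, had 44.2 and 37.4, 54.7 and 52.1, and 30.4 and 31.9 CPM. The order was the opposite of that of Flnc, with AAV-XBP1S above and AAV-ATF6N below the controls, and AAV-ATF6N was 1.71-fold lower than AAV-XBP1S (-0.78, SE 0.20, edgeR adjusted p = 0.158). Tpm2, β-tropomyosin, had 20.2 and 11.4, 18.6 and 15.3, and 11.7 and 11.1 CPM, with the AAV-XBP1S libraries within the span of the controls and those of AAV-ATF6N at its lower end. Reads of exons that are alike among the tropomyosin genes could be split between them in counting, so the single values of these 3 genes are uncertain.

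Of the nebulin family, Nebl, nebulette of the cardiac Z-disc, had 15.7 and 50.2 CPM in AAV-GFP, 21.1 and 43.2 under AAV-XBP1S and 72.6 and 54.9 under AAV-ATF6N. In both AAV-GFP and AAV-XBP1S replicate 1 was more than 2-fold below replicate 2, and only AAV-ATF6N stood clear of the rest (log2 fold change 0.95, SE 0.57, edgeR adjusted p = 0.433). Neb, nebulin, which spans the thin filament of skeletal muscle, had 2.81 and 1.81, 5.19 and 3.07, and 2.28 and 2.83 CPM, highest in AAV-XBP1S (0.83, SE 0.39, edgeR adjusted p = 0.475). Lmod2, leiomodin, which lengthens thin filaments at their pointed ends, had 328 and 167, 161 and 130, and 196 and 200 CPM. Both AAV-XBP1S libraries were below the controls (-0.77, SE 0.33, edgeR adjusted p = 0.438), replicate 1 by little, and AAV-ATF6N lay within their range. Tmod1, the tropomodulin that caps those ends, had a log2 fold change of -0.28 in AAV-XBP1S and 0.14 in AAV-ATF6N.

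Among the genes of the intermediate filament, membrane and intercalated disc, Xirp1 had the value farthest from the controls in AAV-ATF6N, and in AAV-XBP1S Des did. It lies at chr9:120013755-120023598 on the minus strand and encodes an actin-binding Xin repeat protein of the intercalated disc. The libraries read 141 and 365 CPM in AAV-GFP, 191 and 304 under AAV-XBP1S and 756 and 742 under AAV-ATF6N. AAV-XBP1S lay between the controls and AAV-ATF6N lay above all of them, 2.96-fold over AAV-GFP (log2 fold change 1.57, SE 0.46, edgeR adjusted p = 0.268) and 3.03-fold over AAV-XBP1S (1.60, SE 0.46, adjusted p = 0.199). The authors' deposited table for AAV-ATF6N lists Xirp1 at 1.57 with an adjusted p of 0.0071. Without AAV-GFP replicate 1 the log2 fold change was 1.04 and without replicate 2 it was 2.43. With the gene-length offset the value of Xirp1 against AAV-XBP1S went from 1.60 to 1.43 (edgeR adjusted p = 0.0666). Xirp2, the second Xin repeat gene, did not share this pattern, with 228 and 72.6, 164 and 91.4, and 110 and 116 CPM, all AAV-ATF6N and AAV-XBP1S libraries being within the span of the controls.

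Des, desmin, the intermediate filament protein that ties Z-discs to one another and to the membrane, had 2814 and 2563 CPM in AAV-GFP, 1893 and 1687 under AAV-XBP1S and 2514 and 2485 under AAV-ATF6N. The AAV-XBP1S libraries lay below every other library (log2 fold change -0.59, SE 0.18, edgeR adjusted p = 0.299), while AAV-ATF6N lay just under the controls (-0.11, SE 0.18, adjusted p = 0.759). Cryab, the small heat shock protein αB-crystallin that guards desmin and titin, had 2440 and 1301, 1608 and 1079, and 1294 and 1294 CPM, and AAV-GFP replicate 1 was the highest. Murc, a caveolar coat protein, had log2 fold changes of -0.29 in AAV-XBP1S and 0.13 in AAV-ATF6N.

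The 5 genes of assembly and turnover stood in a common order, AAV-XBP1S below AAV-ATF6N, with no overlap between those groups in any of the 5, beside 30.2% of all genes. The log2 fold changes ran from 0.19 for Fbxo32 to 0.56 for Trim54, and that of Fbxo32 turned to -0.02 with library totals and to -0.00084 with the length offset. None passed edgeR's adjusted p. The ubiquitin ligase genes Trim54, Trim63 and Fbxo32 were lower in both AAV-XBP1S libraries than in both controls. Trim54 had 381 and 294 CPM in AAV-GFP, 219 and 182 under AAV-XBP1S and 291 and 301 under AAV-ATF6N, for a log2 fold change of -0.75 (SE 0.22, edgeR adjusted p = 0.284) against the control in AAV-XBP1S. Those of Trim63 and Fbxo32 were -0.61 and -0.49, and in AAV-ATF6N the 3 had -0.19, -0.27 and -0.30. Smyd1, a methyltransferase needed for myosin assembly, had 95.3 and 102, 110 and 92.8, and 134 and 118 CPM. Its AAV-ATF6N libraries were the highest and the other groups overlapped. The myosin chaperone gene Unc45b had log2 fold changes of -0.25 in AAV-XBP1S and 0.26 in AAV-ATF6N.

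**Figure D5:**
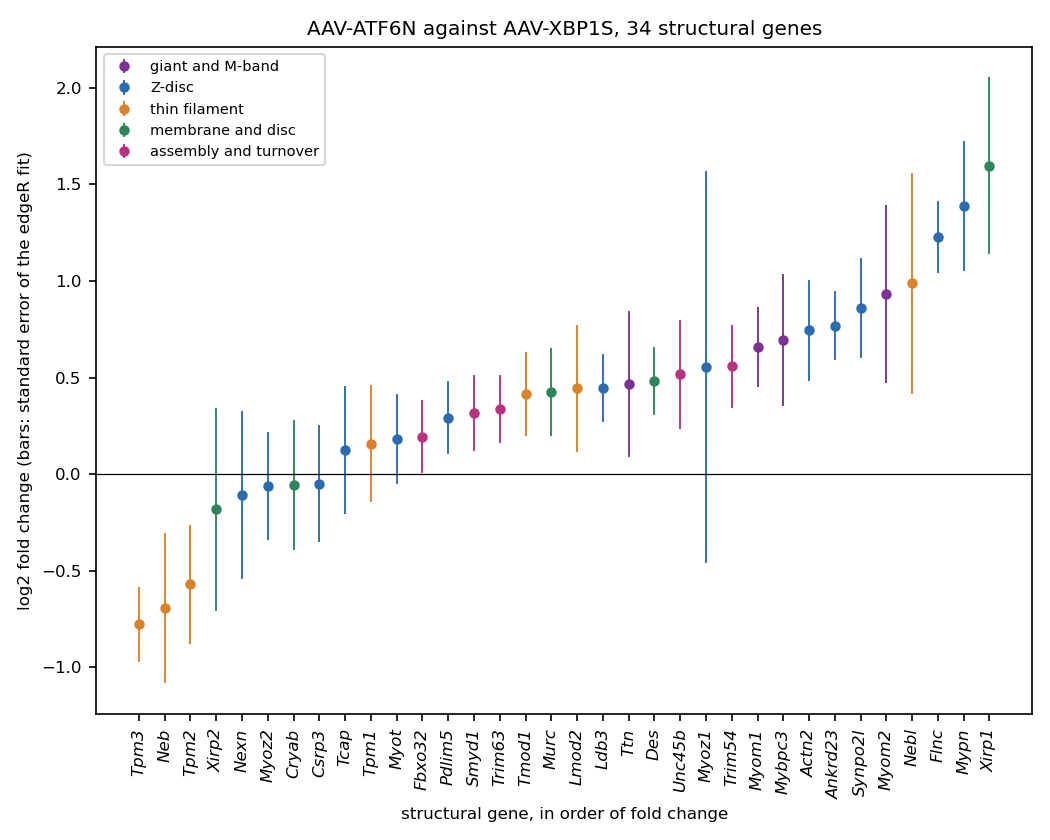
Log2 fold change of AAV-ATF6N against AAV-XBP1S with its standard error for the 34 structural genes in order, coloured by functional group. Values run from -0.78 for Tpm3 to 1.60 for Xirp1, and 26 of 34 lie above 0; with library totals in place of TMM factors the median of all genes is -0.22 and Tcap, Myot, Tpm1 and Fbxo32 turn to values below 0.

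In the direct comparison the offset for gene length called 7 structural genes and 4% of all genes. Mypn, Flnc, Ankrd23, Synpo2l, Myom1, Des and Trim54 were higher in AAV-ATF6N there, with log2 fold changes from 0.47 to 1.21. The fit over 4 libraries and the one with the offset both called Mypn, Flnc, Ankrd23 and Synpo2l. With the offset Mypn went from 1.39 to 1.21, Flnc from 1.23 to 1.04 and Synpo2l from 0.86 to 0.73. Ankrd23 went the other way, from 0.77 to 0.86. By the authors' deposited results, 1 of the 34 genes in their deposited table for AAV-XBP1S passed an adjusted p of 0.05, Tcap, where 1.31% of all genes did, and 2 passed in AAV-ATF6N, Tcap and Xirp1, where 2.71% did.

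Of 58 further sarcomere genes from a fixed list, edgeR called 1 in AAV-XBP1S and 3 in AAV-ATF6N against AAV-GFP, and 2 between those groups. The shares of all genes tested were 0.315%, 0.514% and 0.226%. On this list the genes called all lay among the 13 troponin, myosin and actin genes. These were the slow skeletal troponin I gene Tnni1, which rose in both (log2 fold changes 5.70 and 7.11), and in AAV-ATF6N the skeletal actin gene Acta1, which rose by 2.39, and the atrial light chain gene Myl7, at -5.72. None of the 37 other structural or regulatory genes and none of the 8 muscle transcription factors passed in any of the 3 comparisons. At an unadjusted p under 0.05 there were 9, 11 and 12 of the 37 and 1, 1 and 2 of the 8. Of all genes tested 11.6%, 13.5% and 13.2% were under it. Against AAV-GFP the log2 fold changes of the 37 ran from -3.03 to 2.54 in AAV-ATF6N and from -1.09 to 1.58 in AAV-XBP1S. Inside these ranges, and not at their ends, the LIM domain gene Fhl1 had 1.25 in AAV-ATF6N. Obsl1, an obscurin-like linker of titin and myomesin, had -0.89 in AAV-XBP1S. The medians of the 58 were -0.24 for AAV-XBP1S and 0.12 for AAV-ATF6N relative to the control, and 0.35 for the second relative to the first. In that last comparison 50 of the 58 were above 0 and 8 below. Both AAV-ATF6N libraries lay above both AAV-XBP1S libraries in 39 and below in 3, beside 30.2% and 26.8% of all genes. The order of these groups was therefore not particular to the structural genes described here.

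Markers of other cells differed between the groups as well. The 8 endothelial markers summed to 1145 and 1025 CPM in AAV-GFP, 1341 and 1564 under AAV-XBP1S and 685 and 635 under AAV-ATF6N, and all 8 had a log2 fold change above 0 in AAV-XBP1S while 1 of 8 did in AAV-ATF6N. The 8 fibroblast markers summed to 468 to 605, 813 to 967 and 795 to 830 CPM. Of the 6 atrial markers, Nppa stood at 229 and 101, 465 and 301, and 2184 and 2340 CPM, but Myl7 fell to 0.419 and 0.306 CPM in AAV-ATF6N and Sln was at 0.172 and 0.153 there. The part of these cells in the values of the structural genes was not tested. In bulk RNA, fewer cells of a type and less RNA of a gene in each cell cannot be told apart.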

How the data were processed

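The 6 libraries, 2 per group, measured polyadenylated RNA of purified cardiomyocytes. Per the labels' protocols, cDNA was made with a full-length amplification kit that does not mark strand, so a gene and an antisense or overlapping partner share reads. The deposited count table gives whole-number read counts of 23337 genes. STAR, featureCounts, mm10, DESeq2 and DESeq are named in the submitters' processing notes; their versions, the annotation and the counting settings remain unstated: "not given in the sources used here". Per the file headers, 2 further tables were deposited by the authors, one for each comparison with AAV-GFP with log2 fold changes and p-values with their adjustment, which were used; their mean normalized signal, standard errors and test scores were not. Every count column was mapped to a library, leaving 0 unused.

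Counts were fitted with edgeR 4.0.16 in R 4.3.3 (quasi-likelihood F test, TMM factors, all 6 libraries in 1 fit, group as the only term, 3 residual degrees of freedom). filterByExpr with a count minimum of 10 kept 14587 genes. Adjusted p-values are Benjamini-Hochberg over all genes tested and "called" means an adjusted p under 0.05. Fitting was tested on simulated counts with less spread than these libraries and larger changes than those of the structural genes. That test therefore does not measure the power to detect the changes described here. Total counts per library ran from 67702482 to 112049342; intervals from counting are small beside the spread between replicates, and no molecular identifiers are named. CPM were scaled by TMM factors, and levels per kilobase divided them by the counted exon length. Gene coordinates are those of the count table (mm10), and promoter windows those of RefSeq (GRCm38.p6).

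The alternatives were DESeq2 1.42.0, other scalings, no filter, only the 4 libraries compared, an offset for gene length, a replicate block and each library left out. The gene lists, the members and the tests were chosen with earlier results of these data known. Genes are given with values in every library if they were called by edgeR over the 6 libraries in a comparison (none was), were among the 5 highest or 5 lowest of a comparison with at least 5 CPM in the higher group, were among the 6 highest per kilobase, or are paralogs of different muscle types. Ankrd23, Ldb3, Synpo2l, Myom1 and Des fall outside that rule and were chosen after their values were seen.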

Additional observations from a re-analysis of the deposited data

Results flagged for a closer look

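In 4 structural genes both AAV-XBP1S libraries lay on one side of both AAV-GFP libraries and both AAV-ATF6N libraries on the other, so the 2 groups stood on opposite sides of the control; 5.09% of all genes tested did so. The difference was tested directly by edgeR in the comparison of AAV-ATF6N with AAV-XBP1S. Flnc had a log2 fold change of 1.23 there (adjusted p = 0.0601), Ankrd23 0.77 (adjusted p = 0.133), Ldb3 0.45 (adjusted p = 0.344; its value against AAV-GFP in AAV-ATF6N turned from 0.06 to -0.29 with the gene-length offset) and Tpm3 -0.78 (adjusted p = 0.158). None passed over the 6 libraries, and Flnc, Ankrd23 and Tpm3 passed with DESeq2 (adjusted p = 1.2e-05, 0.0163 and 0.0322). The Y-linked genes and Xist separate the same 2 groups, and their part in these differences was not tested.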

How the results depend on the processing

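Over the 34 genes, 3 comparisons and 13 alternatives, 1179 of 1326 log2 fold changes kept their direction and missed the threshold as before, 72 kept their direction and passed it, and 75 changed sign, 47 of them with a library left out. With no filter on low counts edgeR called 1 structural gene in AAV-XBP1S against AAV-GFP, 2 in AAV-ATF6N against AAV-GFP and 3 in AAV-ATF6N against AAV-XBP1S, with DESeq2 the counts were 1, 3 and 5, and with the gene-length offset 3, 2 and 7; over the 4 libraries compared alone they were 0, 0 and 7, and with RLE factors or library totals 0 in each. Without 1 library at a time they ran from 0 to 3, 0 to 16 and 0 to 7. In the last comparison leaving out AAV-GFP replicate 1 gave 7, leaving out replicate 2 of that group gave 6, and 0 were called without any AAV-XBP1S or AAV-ATF6N library; the cause was not tested. The medians were -0.0094, 0.19 and 0.23 with library totals, 0.035 in AAV-ATF6N against AAV-GFP with the gene-length offset, and ran from -0.36 to -0.21, from -0.0044 to 0.21 and from 0.34 to 0.44 without 1 library. With the gene-length offset Ttn and Smyd1 changed sign in AAV-XBP1S (-0.17 and -0.034), Ldb3, Pdlim5, Neb and Trim54 in AAV-ATF6N (-0.29, -0.11, -0.14 and 0.090), and Myoz2, Csrp3, Cryab and Fbxo32 in the direct comparison (0.18, 0.23, 0.19 and -0.00084). With library totals 11 genes changed sign in AAV-XBP1S, namely Myom1 (0.14), Myom2 (0.18), Mybpc3 (0.012), Actn2 (0.12), Myoz1 (0.013), Synpo2l (0.12), Pdlim5 (0.23), Ankrd23 (0.15), Nebl (0.20), Xirp1 (0.21) and Xirp2 (0.065), and 4 in the direct comparison, Tpm1 (-0.046), Tcap (-0.077), Myot (-0.030) and Fbxo32 (-0.017). Left-out libraries changed the sign of several of the genes named by the rule for a comparison, and ranges are given for these. In AAV-XBP1S these were Tpm2 (-0.22 to 0.58), Ttn (-0.35 to 0.83), Smyd1 (-0.043 to 0.16), Mybpc3 (-0.65 to 0.39), Actn2 (-0.45 to 0.32), Cryab (-0.83 to 0.043), Myoz1 (-0.95 to 0.26) and Nebl (-0.65 to 1.07). In AAV-ATF6N they were Nexn (-1.20 to 0.18), Tpm2 (-0.81 to 0.0070), Myoz1 (-1.03 to 0.96) and Neb (-0.13 to 0.50). In the direct comparison they were Xirp2 (-0.55 to 0.26), Nexn (-0.35 to 0.13), Myoz2 (-0.28 to 0.15), Tpm1 (-0.044 to 0.35), Tcap (-0.14 to 0.41), Csrp3 (-0.30 to 0.21), Cryab (-0.31 to 0.22) and Myoz1 (-0.77 to 1.25). A lone library left in a group is assumed to vary like the others. In both comparisons with AAV-GFP the largest number called with a library left out came without AAV-GFP replicate 2. That fit has AAV-GFP replicate 1, the library that stood apart, as its only control. It cannot tell a treatment difference from the deviation of that library. The numbers called with a library left out, with no filter or with the replicate block are given without the share of all genes. Replicates of the same number deviated together in part in AAV-GFP and AAV-XBP1S (correlation of deviations 0.379). They did not with AAV-ATF6N (-0.0402 for AAV-GFP and -0.0480 for AAV-XBP1S), so the numbers did not pair the libraries across all groups. With the replicate block 1, 2 and 3 genes were called, with medians of -0.25, 0.15 and 0.44, and Myom2, Nebl and Xirp1 turned to 0.018, 0.040 and 0.046 in AAV-XBP1S. AAV-GFP replicate 1 differed from replicate 2 more than other pairs did, which limits both comparisons with the control.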

Other observations

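Among the most abundant RNAs, Tcap was at the low end of both comparisons with AAV-GFP. Of 149 genes with a mean of at least 1000 CPM in AAV-XBP1S or AAV-GFP it had the lowest log2 fold change, and of 163 in AAV-ATF6N or AAV-GFP the second lowest after Rn45s. Between AAV-ATF6N and AAV-XBP1S it ranked 70 of 143 from the lowest. The median log2 fold changes of these abundant genes were -0.40, -0.27 and 0.16. This count was made after the values of Tcap were seen.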
